A study of Homo sapiens with 4 samples.

Results

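The genes described here are 42 of the 58735 genes in the count tables, and they encode proteins of homologous recombination, the Fanconi anaemia pathway, the DNA damage checkpoint and mismatch repair. They were matched by symbol to a list of repair genes, and no threshold on measured values enters that rule, although the list was drawn up with earlier results of these data known. All 42 passed the expression filter, which kept 15075 genes. Poly-A RNA was sequenced from HaCaT, an established human keratinocyte line that became immortal in culture and carries mutated p53. The cells were transfected with 200 pmol of negative control siRNA (siControl, genotype WT) or of siRNA against ALKBH5 (siALKBH5, ALKBH5 knockdown), with lipofectamine 3000 in both groups, and there were 2 libraries per group. ALKBH5 is an enzyme that removes the m6A mark from RNA. The time between transfection and harvest is not given in the sources used here, nor is it stated whether the 2 libraries of a group came from separate cultures, so the p-values measure only the spread between these libraries. All values come from 1 cell line, and in bulk RNA fewer cells that express a gene cannot be told apart from less RNA of it per cell.

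A break in both strands of DNA can be repaired by homologous recombination, in which the broken end is trimmed to a single strand and copied from the sister chromatid, so the pathway works mainly in S and G2 phase. BRCA1 and BRCA2 bring the strand-exchange recombinase to the trimmed end. The Fanconi proteins recognise strands that are cross-linked to each other, attach ubiquitin to the FANCD2 and FANCI pair and hand the opened lesion to recombination, while mismatch repair corrects wrongly paired bases behind the replication fork. Keratinocytes of the basal epidermis divide throughout life and meet ultraviolet damage, and many of these genes are known to be transcribed mostly in dividing cells.

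The libraries held between 16017502 and 18837807 counts on genes, and mitochondrial genes took 10.2% of the counts in each siControl library against 9.63% and 9.64% in siALKBH5. All 10 keratinocyte markers had counts in every library. Their summed level was 5899 and 5789 FPKM (counts per gene length, scaled to the library total) in siControl and 7237 and 7217 in siALKBH5, so it was higher in the same group as most of the repair genes that changed, and its part in their changes was not tested. Those of 7 fibroblast, 5 melanocyte, 5 leukocyte and 4 endothelial markers summed to between 1.25 and 4.13 FPKM, and COL1A2, PDGFRA, PDGFRB, TYR and KDR were at 0 in all 4 libraries. ALKBH5 itself had 1512 and 1576 counts in siControl against 956 and 816 in siALKBH5, a log2 fold change of -0.85 ± 0.05 (standard error, SE, adjusted p = 6.4e-15 with edgeR's quasi-likelihood test).

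Most of the repair genes that changed were higher after ALKBH5 knockdown. A gene was called higher or lower at an adjusted p under 0.05 in edgeR's quasi-likelihood test with Benjamini-Hochberg adjustment over the 15075 genes. By this rule 23 of the 42 genes were higher, against 19.3% of all genes tested, 3 were lower, against 17.3% of all genes tested, and 16 had no call. With the further minimum of 1 on the log2 scale, FANCA, RAD54L and EXO1 were higher, against 1.62% of all genes tested, and 0 of the 42 were lower, against 1.3%. The median log2 fold change was 0.35 over the 42 genes and -0.0081 over all genes tested, and it was 0.32 between the libraries of replicate 1 and 0.30 between those of replicate 2. In sum, the 42 genes took 750.3 and 750.1 CPM (counts scaled to a common library size, with TMM factors) in siControl and 895.7 and 898.8 CPM in siALKBH5. Both siALKBH5 values lay above both siControl values in 27 of the genes, against 32.8% of all genes tested, and below them in 6, against 33.5%, and the groups overlapped in the other 9. The 23 genes that rose had log2 fold changes between 0.28 and 1.11 with a median of 0.70, and the 3 that fell did so by 0.16 to 0.26. Standard errors were 0.050 to 0.24 in the former and 0.056 to 0.077 in the latter. The 16 genes with no call ran from -0.73 to 0.37. These ranges depend on which changes could be called, so they do not compare the sizes of rises and falls.

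**Figure D1:**
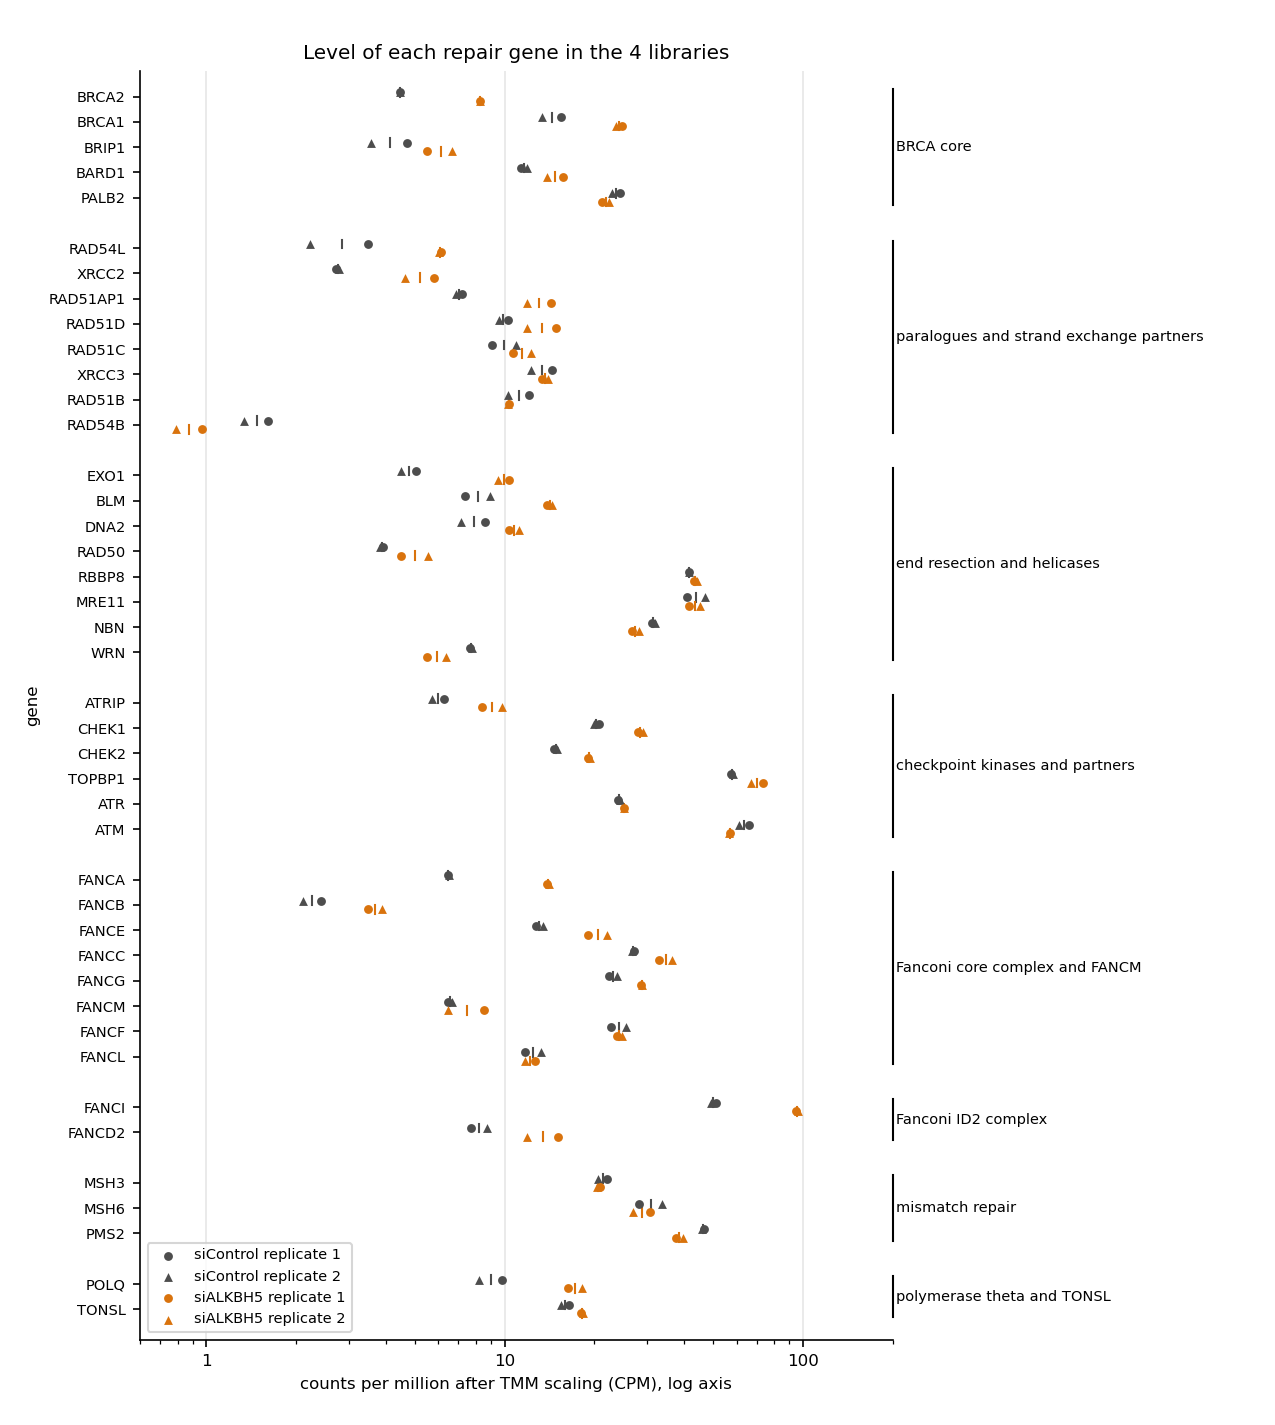
Level of each of the 42 repair genes in CPM after TMM scaling (horizontal log axis), grouped by role. Grey and orange symbols are the siControl and siALKBH5 libraries, circles replicate 1 and triangles replicate 2, and short bars are the means of 2 libraries. FANCI stands apart at 94.6 and 96.7 CPM in siALKBH5 against 51.1 and 49.2 in siControl. The fitted log2 fold change is negative in 11 of the 42 genes, which include RAD54B, WRN, NBN, ATM and all genes of the mismatch repair role.

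The 42 genes were all expressed at modest levels. Per gene length, PMS2 was the highest in siControl at 11.8 ± 0.12 FPKM (SD, n = 2), followed by FANCF at 8.24 ± 0.70 and RBBP8 at 8.22 ± 0.018, which did not differ beyond their spread. In siALKBH5 the order began with FANCI at 12.2 ± 0.18 FPKM, which had been at rank 5 with 6.50 ± 0.17 in siControl, and PMS2 came next at 9.71 ± 0.34. RAD54B was the lowest in both groups, at 0.28 ± 0.037 FPKM in siControl and 0.16 ± 0.023 in siALKBH5. It shares 59.1% of its exonic bases with another gene, and RAD50 shares 79.7%, so the levels and ranks of both are uncertain. The listed length of a gene sums every annotated exon, so levels of genes with long rare exons are understated. Single counts ran from 13 for RAD54B to 1767 for FANCI, and the standard errors of the log2 fold changes from 0.05 for FANCI to 0.39 for RAD54B.

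The regions where these genes start were searched for letters that E2F factors, the main activators of S phase genes, are known to bind. RefSeq windows from 250 bases before to 50 bases after the start (GRCh38.p14) were matched for 36 of the 42 genes. On either strand, TTTGGCGC, TTTCCCGC, TTTCGCGC or TTTGCCGC was found in 9 of the 36 windows, which is 25.0%, against 3.33% of all 27305 promoter windows and 5.29% of those of the 10374 tested genes with a window. The stretches below are shown because they hold these letters in 8 of the 9 genes, printed along the gene's strand with the match in capitals. A capital run that begins with GCG is the reverse complement of the letters searched.
XRCC2 (chr7:152676102-152676131, minus strand): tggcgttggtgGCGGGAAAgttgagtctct
EXO1 (chr1:241848197-241848226, plus strand): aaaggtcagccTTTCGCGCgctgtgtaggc
TOPBP1 (chr3:133661930-133661959, minus strand): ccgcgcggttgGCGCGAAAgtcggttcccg
FANCA (chr16:89816801-89816830, minus strand): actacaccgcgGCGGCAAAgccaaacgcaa
FANCC (chr9:95317737-95317766, minus strand): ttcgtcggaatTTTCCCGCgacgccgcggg
FANCD2 (chr3:10026424-10026453, plus strand): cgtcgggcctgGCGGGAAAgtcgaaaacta
MSH6 (chr2:47783137-47783166, plus strand): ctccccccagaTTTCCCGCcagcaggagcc
PMS2 (chr7:6009131-6009160, minus strand): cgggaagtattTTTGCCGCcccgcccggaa

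FANCC held a further match upstream of the one shown, and the annotated FANCC gene begins far upstream of this RefSeq window. The matches near the start of FANCD2, EXO1 and MSH6 lie within 4 bases of it. Of the 9 genes, XRCC2, EXO1, TOPBP1, FANCA, FANCC and FANCD2 were higher, PMS2 was lower and MSH6 and MSH3 had no call, with a median log2 fold change of 0.36. The 27 genes without the letters counted 15 higher, 1 lower and 11 with no call, with a median of 0.37. CCAAT, the letters known for NF-Y, stood in 16 of the 36 windows (44.4%, against 35.7% of all windows and 36.6% of those of tested genes), and TTTGAA or TTCGAA, known from genes of G2 and M phase, in 4 (11.1%, against 16.6% and 10.95%). No match says only that these letters are not in this window.

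Among BRCA1 and its partners, BRCA2, BRCA1, BRIP1 and BARD1 were higher in siALKBH5 and PALB2 had no call. BRCA2, which loads the recombinase onto DNA (chromosome 13, 32315474 to 32400266, plus strand), had 4.47 and 4.45 CPM in siControl and 8.30 and 8.26 in siALKBH5. The libraries of each group lay close together and the groups were far apart, with a log2 fold change of 0.89 ± 0.16 (SE, adjusted p = 4.1e-05 with edgeR). BRCA1, a ubiquitin ligase that steers breaks towards recombination (chromosome 17, 43044295 to 43170245, minus strand), went from 15.5 and 13.3 CPM to 24.8 and 23.6, a log2 fold change of 0.75 ± 0.10 (SE, adjusted p = 2.1e-07 with edgeR). Its obligate partner BARD1 rose from 11.4 and 11.9 CPM to 15.7 and 13.9, with a log2 fold change of 0.35 (adjusted p = 0.020 with edgeR). The ratio of BRCA1 to BARD1 in FPKM was 0.90 and 0.74 in siControl and 1.04 and 1.13 in siALKBH5. The helicase BRIP1 had 76 and 64 counts in siControl against 103 and 110 in siALKBH5, with a log2 fold change of 0.56 (adjusted p = 0.019 with edgeR). PALB2, the bridge between BRCA1 and BRCA2, had 24.5 and 23.0 CPM in siControl and 21.2 and 22.5 in siALKBH5, with a log2 fold change of -0.12 and a 95% interval from -0.30 to 0.06. The ratio of BRCA2 to PALB2 in FPKM was thus 0.071 and 0.075 in siControl and 0.15 and 0.14 in siALKBH5. The calls of BARD1 and BRIP1 were lost without some of the libraries: that of BARD1 without siControl replicate 1 or siALKBH5 replicate 1, and that of BRIP1 without siControl replicate 2 or siALKBH5 replicate 2.

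The partners of strand exchange split into 4 genes that were higher, against 19.3% of all genes tested, and 4 with no call. RAD54L, a motor protein that remodels the recombinase filament (chromosome 1, 46247688 to 46278473, plus strand), had 56 and 40 counts in siControl against 114 and 99 in siALKBH5. This corresponds to 3.48 and 2.22 CPM against 6.10 and 6.02, and to a log2 fold change of 1.10 ± 0.21 (SE, adjusted p = 7.9e-05 with edgeR). RAD51AP1, which helps the filament pair with the intact duplex, had 7.20 and 6.89 CPM in siControl and 14.3 and 11.8 in siALKBH5. Its log2 fold change was 0.90 ± 0.14 (SE, adjusted p = 3.1e-06 with edgeR). Of the recombinase paralogues, XRCC2 rose from 2.73 and 2.78 CPM to 5.78 and 4.62, by 0.92 on the log2 scale (adjusted p = 8.3e-04 with edgeR), and RAD51D from 10.2 and 9.56 CPM to 14.8 and 11.9, by 0.44 (adjusted p = 0.0073 with edgeR). XRCC2 and RAD51D sit in the same 4-protein complex as RAD51B and RAD51C, whose log2 fold changes were -0.11 and 0.19 with no call. RAD51C also pairs with XRCC3, which had 233 and 220 counts in siControl against 249 and 230 in siALKBH5, a log2 fold change of 0.04 with a 95% interval from -0.21 to 0.28. RAD54B, the relative of RAD54L, had 26 and 24 counts in siControl against 18 and 13 in siALKBH5. Both siALKBH5 values were below the siControl values, yet the log2 fold change of -0.73 had a standard error of 0.39 and an adjusted p of 0.15 with edgeR. A change of its size was thus not detectable with these counts. The call of RAD51D was lost without siControl replicate 2 or siALKBH5 replicate 1, while those of RAD54L, RAD51AP1 and XRCC2 passed with each library left out in turn.

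**Figure D2:**
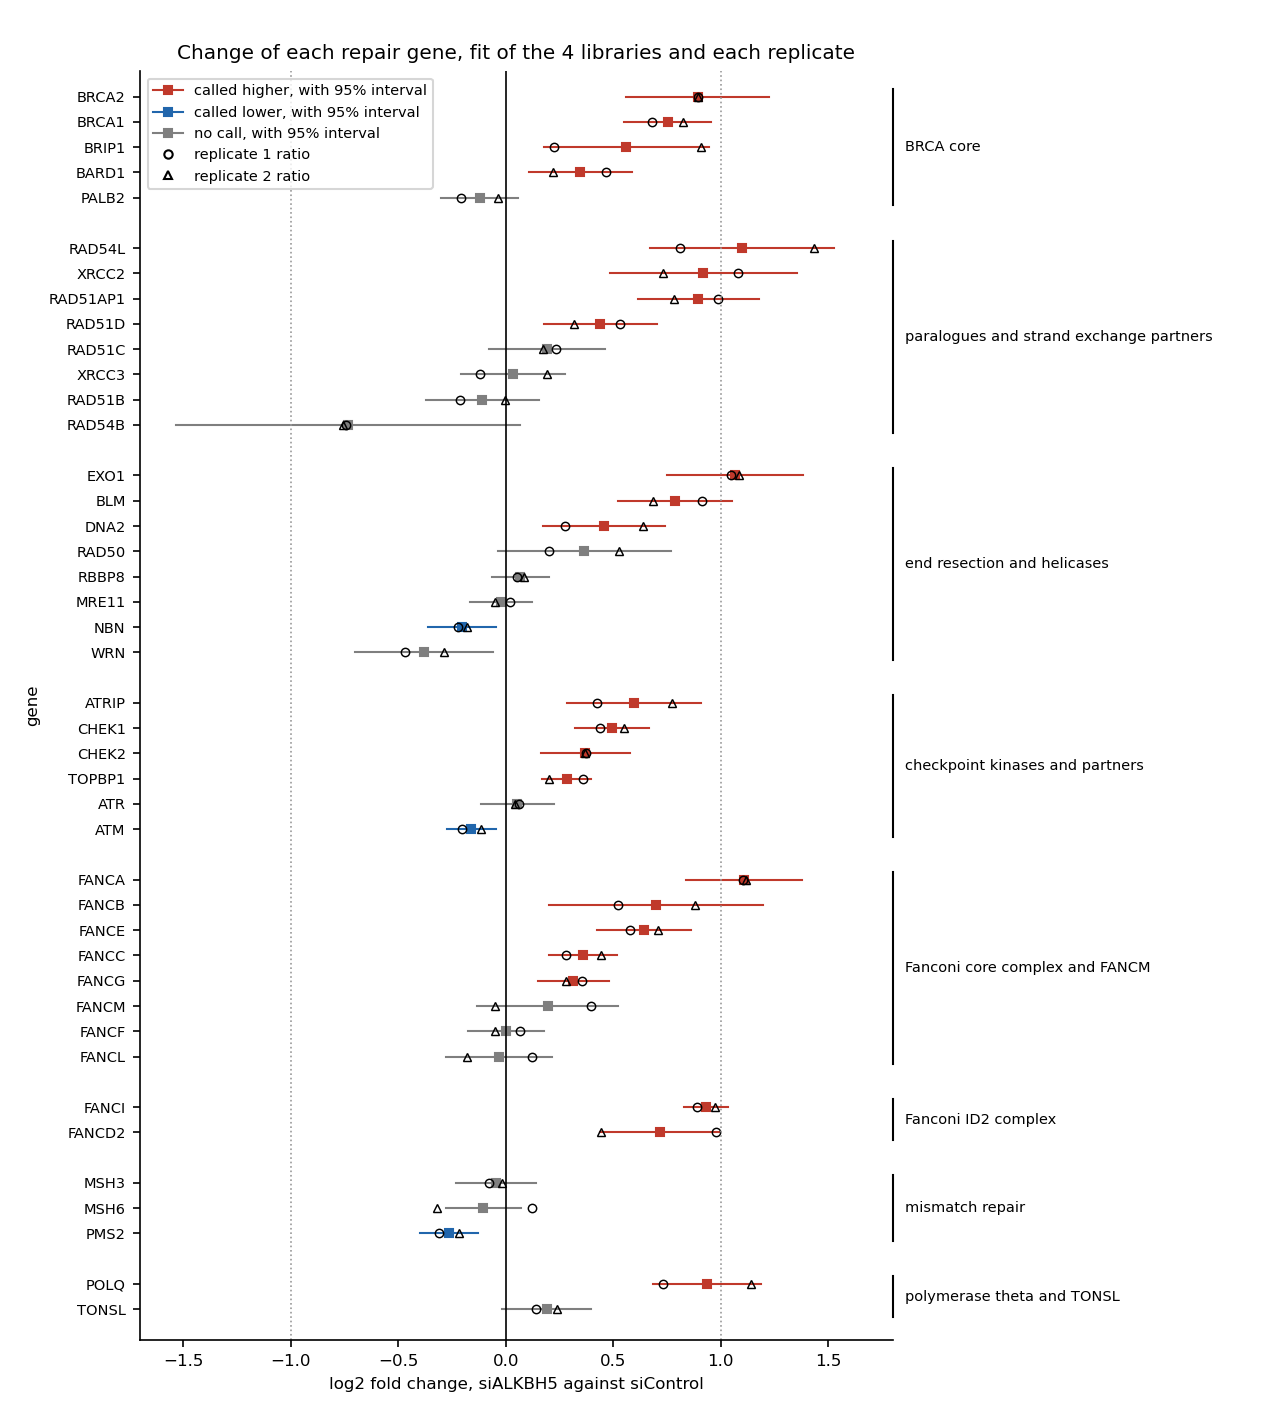
Log2 fold change of the 42 repair genes, siALKBH5 against siControl (horizontal axis), from the fit of 4 libraries. Filled squares with lines are the fitted values with 95% intervals (red called higher, blue called lower, grey no call), open circles and triangles are the ratios within replicate 1 and replicate 2, and dotted lines mark 2-fold. FANCA, RAD54L and EXO1 lie beyond 1, 31 of the 42 fitted values are positive, and mismatch repair is the role with 0 positive values among its 3 genes.

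Among the helicases and the genes that trim broken ends, EXO1, BLM and DNA2 of the long-range step were called higher. The genes for the first cut were not, nor was the helicase WRN, whose fitted change was negative. Whether the steps differ was not tested, and the interval of RAD50 below also holds the fitted change of DNA2. EXO1, a nuclease that extends the trimmed end and also serves mismatch repair (chromosome 1, 241847967 to 241895148, plus strand), had 81 counts in each siControl library and 194 and 157 in siALKBH5. Its level was 5.03 and 4.50 CPM against 10.4 and 9.54, with a log2 fold change of 1.07 ± 0.16 (SE, adjusted p = 1.2e-06 with edgeR). BLM, the helicase that works with both long-range nucleases, rose from 7.39 and 8.95 CPM to 13.9 and 14.4, a log2 fold change of 0.79 (adjusted p = 9.6e-06 with edgeR). DNA2, the other long-range nuclease, had 8.56 and 7.17 CPM in siControl and 10.4 and 11.2 in siALKBH5, with a log2 fold change of 0.46 (adjusted p = 0.0095 with edgeR), and its call was lost without siControl replicate 2 or siALKBH5 replicate 2. The complex of MRE11, RAD50 and NBN, which holds the ends and makes the first cut, held 1 called gene, NBN. MRE11 had 40.9 and 47.0 CPM in siControl and 41.5 and 45.4 in siALKBH5, so the groups overlapped, and its log2 fold change of -0.02 had a 95% interval from -0.16 to 0.12. RAD50 had 63 and 69 counts in siControl against 84 and 91 in siALKBH5, a log2 fold change of 0.37 with an interval from -0.03 to 0.77 and no call. NBN was lower, with 31.2 and 31.9 CPM in siControl and 26.8 and 28.1 in siALKBH5 and a log2 fold change of -0.20 ± 0.08 (SE, adjusted p = 0.037 with edgeR), and this call was lost with any 1 of the 4 libraries left out. RBBP8, the cofactor of the first cut known as CtIP, had 41.5 and 41.6 CPM against 43.1 and 44.2, a log2 fold change of 0.07 with an interval from -0.06 to 0.20. The helicase and nuclease WRN had 7.63 and 7.78 CPM in siControl and 5.51 and 6.38 in siALKBH5, with a log2 fold change of -0.38 that missed the threshold (adjusted p = 0.058 with edgeR), and it was called lower without siALKBH5 replicate 2.

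The checkpoint kinases differed in direction. ATM, the kinase that answers breaks in both strands (chromosome 11, 108222484 to 108369102, plus strand), had 65.8 and 61.3 CPM in siControl and 57.1 and 56.6 in siALKBH5. Its log2 fold change was -0.16 ± 0.06 (SE, adjusted p = 0.024 with edgeR), and the call held only without siControl replicate 2 among the 4 fits with a library left out. ATR, the kinase that answers single-stranded DNA, stayed within a 95% interval from -0.12 to 0.22 around a log2 fold change of 0.05, with 24.1 and 24.4 CPM against 25.2 in each siALKBH5 library. Its binding partner ATRIP was higher, at 6.27 and 5.72 CPM in siControl and 8.41 and 9.78 in siALKBH5, with a log2 fold change of 0.60 ± 0.15 (SE, adjusted p = 0.0022 with edgeR). The ratio of ATR to ATRIP in FPKM was 1.67 and 1.85 in siControl and 1.30 and 1.12 in siALKBH5. TOPBP1, the activator of ATR, rose from 57.5 and 58.5 CPM to 73.7 and 67.3, by 0.28 on the log2 scale (adjusted p = 1.0e-04 with edgeR). The downstream kinases were higher as well. CHEK1, which acts after ATR, had 20.7 and 19.9 CPM in siControl and 28.0 and 29.1 in siALKBH5, a log2 fold change of 0.49 ± 0.08 (SE, adjusted p = 1.8e-05 with edgeR). CHEK2, which acts after ATM, had 236 and 270 counts in siControl against 355 and 319 in siALKBH5, a log2 fold change of 0.37 ± 0.10 (SE, adjusted p = 0.0042 with edgeR).

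The Fanconi core complex is the ubiquitin ligase of the pathway. Of its genes and FANCM, 8 in all, 5 were higher and 0 were lower. Among all genes tested, 19.3% were higher and 17.3% lower. FANCA, a scaffold of the complex (chromosome 16, 89737549 to 89816657, minus strand), had 104 and 117 counts in siControl against 259 and 232 in siALKBH5. At 6.45 and 6.50 CPM against 13.9 and 14.1 it showed the largest fitted change of the 42 genes, a log2 fold change of 1.11 ± 0.13 (SE, adjusted p = 3.4e-08 with edgeR). FANCE, which binds FANCD2, rose from 12.7 and 13.5 CPM to 19.0 and 22.0, by 0.64 on the log2 scale (adjusted p = 1.2e-05 with edgeR). The X-linked FANCB, a partner of the ligase subunit, had 39 and 38 counts in siControl against 65 and 64 in siALKBH5, a log2 fold change of 0.70 (adjusted p = 0.023 with edgeR). FANCC and FANCG rose by 0.36 and 0.32 on the log2 scale, and in both the siALKBH5 values lay above the siControl values. The other 3 genes had no call. FANCL, the subunit with the ligase activity, had a log2 fold change of -0.03 with a 95% interval from -0.28 to 0.22, and FANCF was near 0 with an interval from -0.17 to 0.18. FANCM, the translocase that brings the complex to DNA, was at 0.19 with an interval from -0.13 to 0.52. The call of FANCB was lost without siControl replicate 2 or siALKBH5 replicate 2.

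The targets of the ligase were both higher. FANCI (chromosome 15, 89243949 to 89317261, plus strand) had 823 and 885 counts in siControl against 1767 and 1591 in siALKBH5, which is 50.1 ± 1.34 CPM (SD, n = 2) against 95.6 ± 1.47. Its log2 fold change of 0.93 ± 0.05 (SE, adjusted p = 1.7e-16 with edgeR) was the most precise of the 42. FANCD2 (chromosome 3, 10026414 to 10101930, plus strand) had 7.70 and 8.73 CPM in siControl and 15.2 and 11.9 in siALKBH5, a log2 fold change of 0.72 ± 0.14 (SE, adjusted p = 7.8e-05 with edgeR). The change of FANCD2 was 0.98 within replicate 1 and 0.44 within replicate 2. Per gene length, FANCI stood 6.62 ± 0.76 times (SD, n = 2) above FANCD2 in siControl and 7.77 ± 1.46 times in siALKBH5, a difference within the spread of the libraries.

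MSH6, MSH3 and PMS2, the 3 genes placed under mismatch repair, were not higher. EXO1, which also serves mismatch repair, was placed with the genes that trim broken ends and was higher, with a log2 fold change of 1.07. MSH6 and MSH3 are the alternative partners that decide which mispairs are recognised. MSH3 (chromosome 5, 80654648 to 80876460, plus strand) had 22.1 and 20.6 CPM in siControl and 20.9 and 20.4 in siALKBH5, a log2 fold change of -0.04 with a 95% interval from -0.23 to 0.14. MSH6 (chromosome 2, 47695530 to 47810101, plus strand) had 28.2 and 33.8 CPM in siControl and 30.7 and 27.0 in siALKBH5, so the groups overlapped, and its log2 fold change was -0.10 with an interval from -0.28 to 0.07. The annotated MSH6 gene begins far upstream of the RefSeq start whose window is printed above, and its 10993 exonic bases are all counted. PMS2, the subunit that nicks the new strand (chromosome 7, 5973239 to 6009125, minus strand), had 46.6 and 45.9 CPM in siControl and 37.6 and 39.6 in siALKBH5, a log2 fold change of -0.26 ± 0.07 (SE, adjusted p = 0.0018 with edgeR) that passed with each library left out. PMS2 shares much of its sequence with pseudogenes that have counts here, such as PMS2CL with 195 and 231 in siControl and 173 and 174 in siALKBH5, so reads could be split among them and its value is uncertain. The median log2 fold change of these 3 genes was -0.10, and whether this differs from that of the recombination genes was not tested.

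POLQ, the polymerase that joins trimmed ends through short matching stretches (chromosome 3, 121431427 to 121546641, minus strand), was higher. It had 158 and 148 counts in siControl against 304 and 299 in siALKBH5, which is 9.81 and 8.23 CPM against 16.3 and 18.2 and a log2 fold change of 0.94 ± 0.12 (SE, adjusted p = 2.1e-07 with edgeR). TONSL, which binds newly made chromatin and loads the recombinase, had 16.4 and 15.5 CPM in siControl and 18.1 and 18.3 in siALKBH5. Both values were above those of siControl, but the log2 fold change of 0.19 had a 95% interval from -0.02 to 0.40 and no call.

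**Figure D3:**
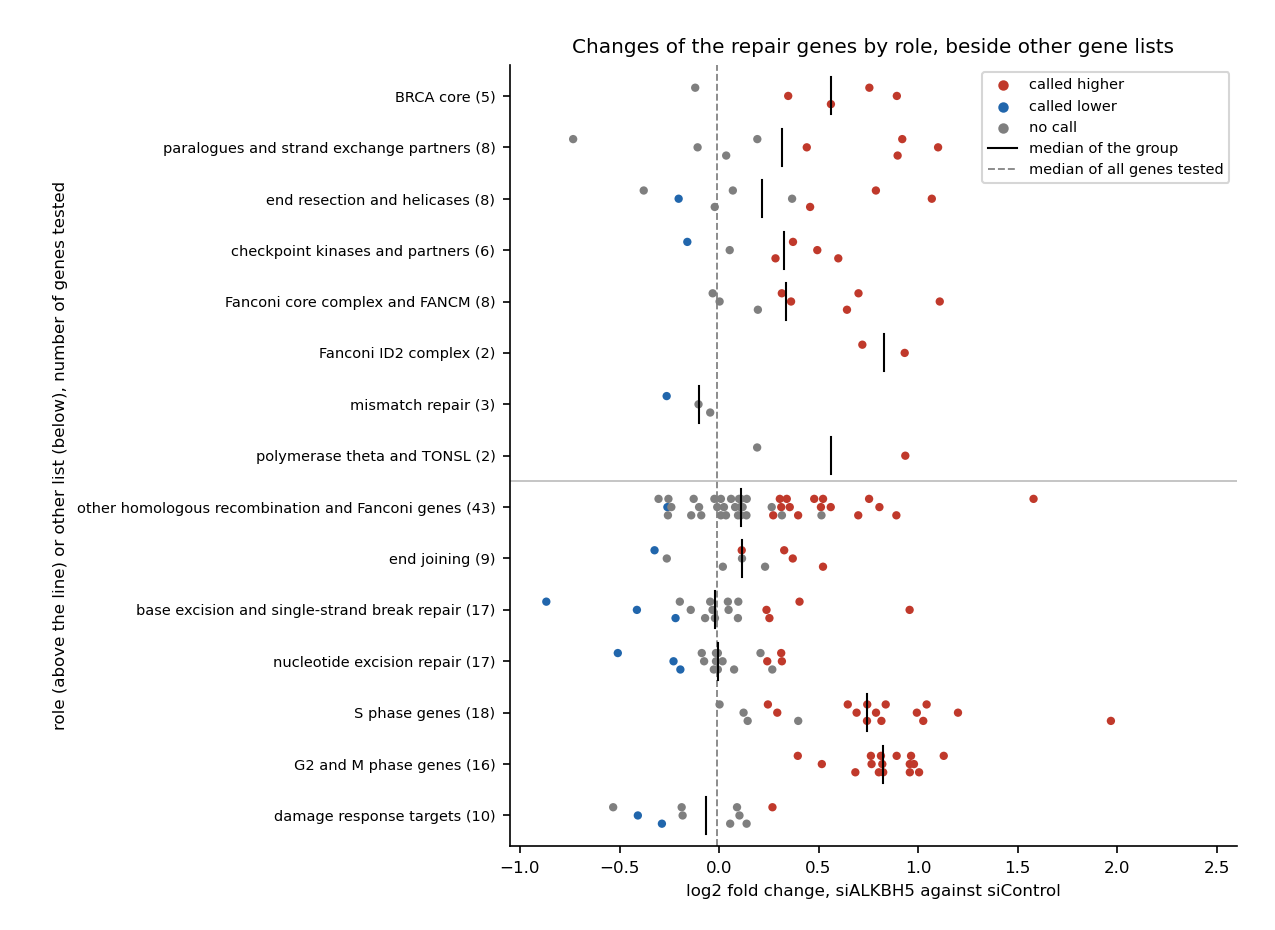
Log2 fold changes, siALKBH5 against siControl (horizontal axis), of the 42 repair genes by role above the grey line and of 7 other gene lists below it, with the number of genes tested in parentheses. Each point is 1 gene (red called higher, blue called lower, grey no call), black bars are group medians and the dashed line is the median of all genes tested. The list of other homologous recombination and Fanconi genes also holds some checkpoint and mismatch repair genes. The median was 0.83 for the ID2 pair of FANCD2 and FANCI, -0.10 for mismatch repair, and 0.74 and 0.82 for the S phase and the G2 and M phase genes.

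Other repair genes were taken from lists, whose counts stand beside 19.3% higher and 17.3% lower among all genes tested. The first list held 43 further genes, most of them of homologous recombination and the Fanconi pathway and some of the checkpoint and of mismatch repair. The mismatch repair genes on it, MLH3 and PMS1, had log2 fold changes of -0.24 and -0.25 with no call. Of the 43 genes, 15 were higher and 1 was lower, with a median log2 fold change of 0.11. EME1, a subunit of a nuclease that cuts joined molecules, rose most, with 41 and 26 counts in siControl against 119 and 89 in siALKBH5 and a log2 fold change of 1.58 ± 0.24 (SE). The checkpoint mediator CLSPN rose by 0.89, and UBE2T, the enzyme that passes ubiquitin to the Fanconi ligase, by 0.81, from 250 and 262 counts to 517 and 407. BRCC3, which removes ubiquitin chains at breaks, fell by 0.26. In end joining, 4 of 9 tested genes were higher, among them PRKDC by 0.52 and XRCC6 by 0.37, and POLM was lower by 0.32. Base excision and single-strand break repair counted 4 higher and 3 lower of 17 (median -0.02), with NEIL3 at 0.96 and NEIL1 at -0.87, which is near the shares over all genes. Nucleotide excision repair counted 3 higher and 3 lower of 17 tested (median -0.0062), with DDB1 at 0.24 and XPA at -0.51, again near those shares. Among 10 known transcriptional targets of the damage response, 1 was higher, CDKN1A at 0.27, and 2 were lower, MDM2 at -0.41 and ZMAT3 at -0.29.

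Many genes of the dividing cell were higher in the same libraries. Of 18 S phase genes, 14 were higher, 0 were lower and 4 had no call. Among all genes tested, 19.3% were higher and 17.3% lower. The summed level of the S phase genes was 565.7 and 562.5 CPM in siControl and 814.3 and 810.3 in siALKBH5. CDC45, which starts the replicative helicase, had 70 and 63 counts in siControl against 279 and 258 in siALKBH5, a log2 fold change of 1.97 ± 0.15 (SE). CDC6 went from 246 and 257 counts to 627 and 564, and TYMS rose by 1.04 on the log2 scale. All 16 G2 and M phase genes were higher, with 1707 and 1706 CPM in sum in siControl and 3031 and 3023 in siALKBH5, and BIRC5 rose by 1.13, PLK1 by 1.00 and UBE2C by 0.98. The part of this rise in the changes of the repair genes was not tested. These values are RNA levels. In separate assays of proliferation, the study that made these data reported no change in HaCaT cells after ALKBH5 knockdown.

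Genes that start beside a repair gene on the other strand were examined as well. Such a neighbour, with starts at most 1000 bases apart, is described for 22 of the 42 genes in 23 pairs, and it passed the filter in 12 pairs. There were 6 such pairs with a repair gene that was higher, and 0 of their neighbours were called, where 19.3% of all genes tested were higher and 17.3% lower, so most genes have no call and little can be read from 6 pairs. The starts used here are the outermost annotated ends of each gene, and most RNA of a gene may begin elsewhere. The start of NBR1 lies 236 bases from the outermost annotated start of BRCA1. NBR1 had 3097 and 3574 counts in siControl against 3467 and 3060 in siALKBH5. Its log2 fold change was -0.07, against 0.75 for BRCA1. C12orf4 beside RAD51AP1 had a log2 fold change of -0.03, MOSPD2 beside FANCB -0.08, HSCB beside CHEK2 -0.02, CIDECP beside FANCD2 0.32 and CRTC3-AS1 beside BLM, with 7 to 23 counts, -0.57. ANKRD49 beside MRE11 and ZFYVE21 beside XRCC3 were lower, by 0.31 and 0.23, while their repair genes had no call. NPAT beside ATM had a log2 fold change of -0.21 and missed the threshold (adjusted p = 0.057 with edgeR), AIMP2 beside PMS2 one of 0.03, DCTN5 beside PALB2 0.12 and FKBP3 beside FANCM 0.07. Differences within a pair were not tested.

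**Figure D4:**
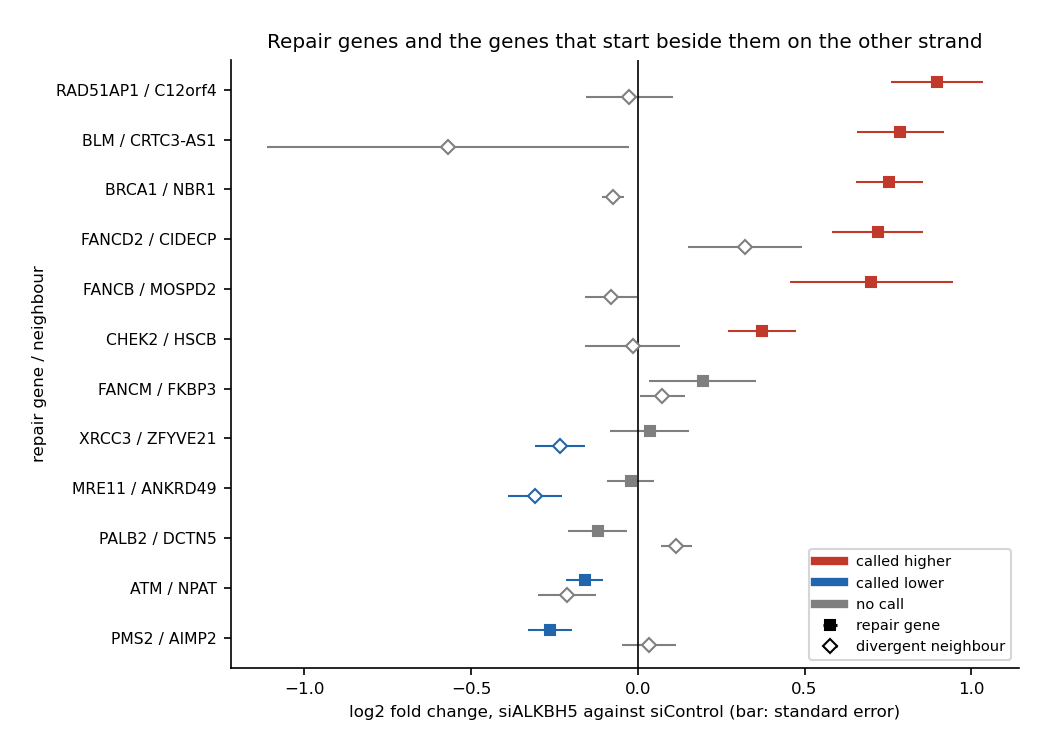
Log2 fold change, siALKBH5 against siControl (horizontal axis, bars are standard errors), of 12 repair genes (filled squares) and of the tested gene that starts beside each on the other strand (open diamonds), ordered by the repair gene's change. Red marks genes called higher, blue lower and grey no call. In the upper 6 pairs the repair gene is red and the neighbour grey.

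Some of the repair genes share exons with another gene, and the strand of the libraries is not stated in the sources used here, so reads on shared bases cannot be assigned with certainty. Shared parts of at least 20% of the exonic bases are listed here. They are 79.7% in RAD50, 76.7% in XRCC3, 59.1% in RAD54B, 27.9% in ATRIP, 25.1% in RAD54L and 23.6% in FANCA. Smaller parts are shared in other repair genes, such as 19.7% in FANCL, 16.4% in ATR and 16.2% in MSH6. The partners of FANCA and RAD54L, ZNF276 and LRRC41, run on the other strand and had log2 fold changes of -0.13 and 0.06 with no call. KLC1, the partner of XRCC3, had one of 0.02, and those of RAD50, RAD54B and ATRIP had 0 to 2 counts in every library. As reads on shared bases cannot be assigned with certainty, such low counts do not show that these partners were unexpressed.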

How the data were processed

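RNA-seq libraries of HaCaT cells (2 siControl, 2 siALKBH5) were analysed from the deposited tables. Per the labels, libraries were made from poly-A RNA. The submitters' processing notes name CASAVA, HISAT2 2.0.5, featureCounts 1.5.0-p3, DESeq2 1.20.0 and hg38. The values used are raw counts per gene as the authors deposited them, without normalization. The tables also hold FPKM, scaled within each table, and the authors' fold changes and p-values, and these were not used. All 58735 gene identifiers are those of GENCODE 29, and 58653 have the same coordinates. FPKM were recomputed from the counts, the library totals and the listed lengths.

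siALKBH5 was compared with siControl by the quasi-likelihood test of edgeR 4.0.16 (R 4.3.3), after filterByExpr and TMM and without covariates, with Benjamini-Hochberg adjustment over 15075 genes, and the steps were tested on simulated data. The common biological coefficient of variation was 0.0253. The study's thresholds (adjusted p of 0.05, log2 fold change of 1) were kept as a second rule. Totals of 16017502 to 18837807 counts set the precision, and intervals are 95% from the same fit. Alternatives were DESeq2 1.42.0, DESeq2's size factors within edgeR, scaling by library size alone, all genes with a count, genes with a mean count of 10 or more, limma 3.58.1 on log2(FPKM + 1) or log2(FPKM + 0.1) with a mean FPKM of at least 1, a replicate block, and each library left out.

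The member genes, roles and other lists were chosen with earlier results of these data known. Named are all members, ALKBH5, tested neighbours on the other strand, and from each other list at most the 3 highest and the 3 lowest called genes. MLH3 and PMS1 are named as well, as listed mismatch repair genes with no call. The E2F, NF-Y and cell cycle letters were searched on both strands of RefSeq windows of GRCh38.p14. Some items are not reported here.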

Additional observations from a re-analysis of the deposited data

How the results depend on the processing

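Of the 26 called repair genes, 16 (15 higher, and PMS2 lower) kept their call under all 12 alternatives that tested them, and none of the 26 changed direction. Among the genes with no call, the fitted values of FANCF, MSH3, RAD51B, MRE11, XRCC3, FANCL, FANCM and MSH6 changed sign with a library left out, and that of FANCF also with library size only and limma. The 23 genes that were higher became 13 with limma on log2(FPKM + 1) and 13 on log2(FPKM + 0.1), where 7 of the 42 were under the filter, 18 with DESeq2, and 19 to 22 with each library left out. The 3 lower genes became 1 with DESeq2, 1 with limma on log2(FPKM + 1), and 1 to 2 with a library left out. The 3 genes higher by 2-fold became 0 with limma on log2(FPKM + 1), 1 on log2(FPKM + 0.1), and 1 to 5 with a library left out (1 without siControl replicate 2, 5 without siALKBH5 replicate 2). The median log2 fold change of 0.35 became 0.33 with library size only, 0.22 and 0.29 with limma at the larger and smaller pseudocount, where genes at low FPKM are drawn towards 0, and 0.31 to 0.35 with a library left out. Genes whose groups did not overlap numbered 33, beside 32.8% of all genes tested with siALKBH5 above and 33.5% with it below. They numbered 34 to 40 with a library left out, since fewer values are compared. Shares over all genes tested are not given here for the alternatives, so an excess over them cannot be read from these counts. The log2 fold change of ALKBH5 ranged from -0.90 to -0.79 with a library left out.

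Same-numbered libraries are known to share a table, and the labels do not say what else they share. Their deviations from the group means correlated at r = 0.034 over 15075 genes. With the replicate block, 23 repair genes were higher and 4 lower, the added gene being WRN, which was also called lower with library size only. ATRIP, FANCC and FANCD2 lost their call under limma alone, and ATM, NBN, BARD1, BRIP1, DNA2, FANCB and RAD51D under DESeq2 and others. The causes were not tested. The standard error was largest for RAD54B, which had 13 to 26 counts.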
